A study of Mus musculus with 6 samples.

Results

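The genes that flank *Cd44* on mouse chromosome 2 were examined gene by gene in primary osteosarcomas with and without *Cd44*. They are 49 listed neighbours of *Cd44*, which lie between 91137360 (the start of *Madd*) and 105904564 (the end of *Elp4*) of chromosome 2 in the GRCm38 genome. They were taken by their symbols from the 39179 Ensembl genes in the count table. The list was made by position, with earlier results of these data known, and does not hold every gene between these ends. All 49 were found, all are protein coding, and 32 lie at lower and 17 at higher coordinates than *Cd44*. The stretch around them, which begins at 90 Mb and is 17 Mb long, holds 213 other counted genes, of which 73 are protein coding.

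The study sequenced mRNA of osteosarcomas that arose in *Nf2*-mutant mice, *Nf2* being a tumor suppressor gene. Tumors of 3 *Cd44*+/+; Nf2Δ2/+ mice (No244, No316 and No368) were set against tumors of 3 *Cd44*-/-; Nf2Δ2/+ mice (No203, No279 and No364). The labels give the strain of all 6 as C57BL/6 x 129/Sv x FVB and no age or sex, and the *Nf2* mutation was shared by both genotypes. The extraction protocol in the labels speaks of cell lines, while the sample labels and the methods speak of tumor tissue.

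A targeted allele is inherited together with the DNA around it, and the nearer a neighbour lies, the less often a crossover separates them. Mice that are homozygous for a targeted allele can therefore also be homozygous for neighbouring alleles of the strain in which the gene was targeted, and differences of such neighbours cannot be told apart by genotype alone from effects of the lost gene. The strain of origin of the *Cd44*-/- allele was not given in the sources used here, and counts per gene carry no allele, so the comparison covers the level of each neighbour and not its sequence. CD44 itself is a receptor for hyaluronic acid on the cell surface, and its neighbours encode proteins of many unrelated kinds.

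The total count ran from 18076388 to 26954142 reads per tumor, so that 3 counts, taken as the smallest detectable level, stood for 0.0990 to 0.252 counts per 1000000 reads (CPM). Levels are given as CPM scaled by the TMM factors of edgeR. The libraries No316 and No368 differed by less than the sampling noise for 87.2% of 16671 genes, whereas in the other 14 pairs of tumors 76.0% to 84.3% of the genes lay outside it, so both were counted as 1 sample in each mean ± SD (n = 2 for *Cd44*+/+ and n = 3 for *Cd44*-/-). The fit across all genes kept the 6 libraries. The labels do not say how the 2 mouse numbers came to give near-identical libraries. No364 stood apart by its liver genes, with 10 hepatocyte markers summing to 117529 CPM against 41.7 to 151 in the other tumors, and its 10 osteoblast markers summed to 3691 CPM against 22533 to 84807 elsewhere, with *Sp7*, *Dmp1* and *Ibsp* at 0.314, 0.523 and 2.25 CPM. No244 stood apart by 55.2% mitochondrial reads (5.94% to 12.5% in the others) and by 7 skeletal muscle markers that summed to 19860 CPM against 14.5 to 677. In No279 the osteoblast markers *Dmp1*, *Ibsp*, *Sp7*, *Bglap* and *Alpl* were at 0.363, 3.27, 3.96, 4.79 and 7.16 CPM, below all tumors other than No364. The labelled tissue was poorly represented by these markers in No279 and No364. The other markers of No279 were nearer to the *Cd44*+/+ tumors. *Phex* (15.9 CPM) and the collagen gene *Col1a1* (11990 CPM, against 765 CPM in No364) lay within the *Cd44*+/+ range. *Runx2*, *Col1a2* and *Spp1*, at 68.3, 8995 and 1444 CPM, lay below it. The Y-linked genes Ddx3y, Eif2s3y, Kdm5d and Uty summed to 44.0 and 69.6 CPM in No279 and No364 and to 0 to 3.28 CPM in No203 and the *Cd44*+/+ tumors, so that these reads ran in part with the genotype, and their relation to the levels below was not tested.

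*Cd44* itself (chr2:102811141-102901665, minus strand) reached 137.3, 243.6 and 240.3 CPM in the 3 *Cd44*+/+ tumors and 19.2, 15.7 and 61.8 CPM in the 3 *Cd44*-/- tumors, ordered as above. Every *Cd44*-/- tumor lay below every *Cd44*+/+ tumor, in the direction of the labels. The log2 fold change of *Cd44*-/- over *Cd44*+/+ was -2.68 (SE 0.65, adjusted p = 0.452 by edgeR's quasi-likelihood test with Benjamini-Hochberg adjustment). Over the 14 alternative settings the adjusted p ran from 0.0145 to 0.818, and it passed 0.05 in the Wald test of DESeq2 alone. In whole tumors, fewer cells of a type and less RNA per cell cannot be told apart, here and for each gene below.

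Among the flanking genes 42 of 49 passed the low-count filter (filterByExpr of edgeR, built on a minimum of 10 counts), and no difference between the genotypes passed the adjusted threshold. The same held for all 16839 genes tested (0% called), where the smallest adjusted p was 0.452. The 7 that were not tested were *Chrm4*, *Syt13*, *Rag1*, *Rag2*, *Slc1a2*, *Elf5* and *Wt1*. The tested genes lay on both sides of 0, with 20 fold changes above and 22 below it. Their median log2 fold change was -0.06, against 0.11 over all genes tested, and the median size of the log2 change was 0.57, against 0.58. At an unadjusted p under 0.05 edgeR counted 5 of 42 (11.9%), beside 10.7% of all genes tested. Of these 5, *F2*, *Mdk* and *Cat* were higher in *Cd44*-/- tumors (3 of 42, beside 6.44% of all genes) and *Madd* and *Dgkz* were lower (2 of 42, beside 4.31%). The share of flanking genes past this threshold was thus close to the share over the whole table.

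For 10 of the 42 (23.8%) every tumor of one genotype lay beyond every tumor of the other, beside 19.1% of all genes tested. *Mdk*, *Prdm11* and *Pdhx* were higher in all 3 *Cd44*-/- tumors (3 of 42, beside 9.49% of all genes), and *Alx4*, *Lrp4*, *Madd*, *Dgkz*, *Ambra1*, *Commd9* and *Nat10* were lower in all 3 (7 of 42, beside 9.57%). No test was run on these counts. Their size depended on the scaling: with library size alone, 3 of the 42 (*Mdk*, *Madd* and *Dgkz*) did not overlap, beside 12.5% of all genes. The TMM factors ran from 0.565 in No244 to 1.32 in No368. DESeq2, run as a Wald test with default settings, called 3 of the 48 flanking genes it fitted at an adjusted p under 0.05. Over all genes it called 419 of the 25317 it fitted, which is 2.33% of the 17952 with an adjusted p. The share among the flanking genes was the higher one, but it rests on 3 genes and was not tested. The 3 were *Mdk*, *Syt13* and *Wt1*, the last pair below the low-count filter of edgeR. It gave no adjusted p for *F2*, *Cat*, *Slc1a2*, *Cd59a*, *Alx4*, *Chst1*, *Ehf*, *Pax6*, *Chrm4*, *Elf5* and *Rag1*.

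**Figure D1:**
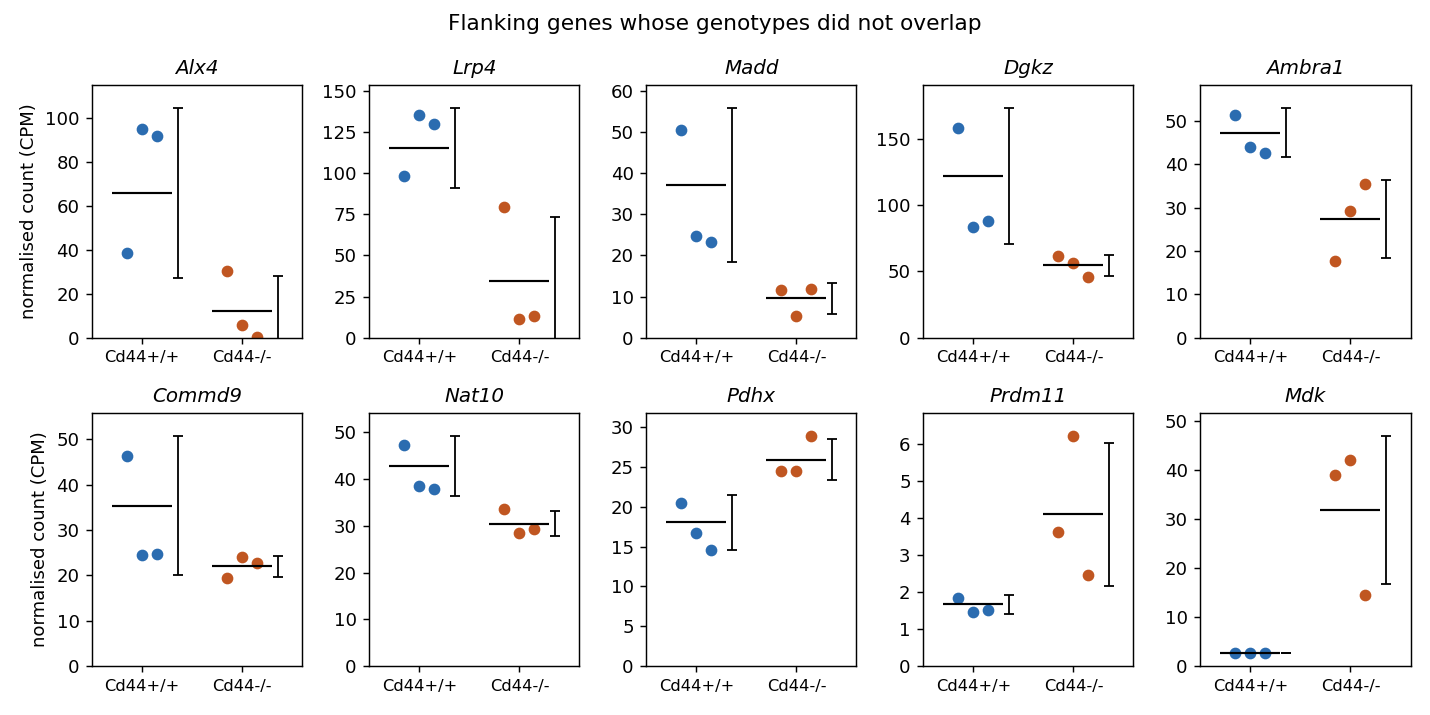
Normalised counts (CPM, linear axes from 0) of the 10 flanking genes whose genotypes did not overlap, 1 point per tumor (order No244, No316, No368 and No203, No279, No364), with the mean (line) and SD (bar), No316 and No368 averaged to 1 sample. *Mdk* has the widest gap as a ratio, 2.61 to 2.69 CPM against 14.5 to 42.1 CPM, and in *Commd9* the gap is 24.0 against 24.5 CPM.

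The widest separation of these 10, as a ratio, was that of *Mdk* (ENSMUSG00000027239, chr2:91929805-91932297, minus strand, 10.9 Mb below *Cd44*), which encodes midkine, a secreted growth factor that binds heparin and is best known from the embryo and from tumors. It was counted at 2.69, 2.61 and 2.64 CPM in the *Cd44*+/+ tumors and at 39.0, 42.1 and 14.5 CPM in No203, No279 and No364. The genotypes did not overlap, and No364 was the lowest of the *Cd44*-/- tumors. The means were 2.66 ± 0.0446 (SD, n = 2) and 31.9 ± 15.1 CPM (SD, n = 3). The log2 fold change was 3.59 (SE 0.53, adjusted p = 0.452 by edgeR's quasi-likelihood test). Without each tumor in turn the fold change ran from 3.34 to 3.94 and the unadjusted p stayed under 0.05. Without No316 or No368 its near-identical partner stays in the fit, and without No244 that pair alone stands for *Cd44*+/+. These fits, also among the settings counted below, are therefore not independent checks. DESeq2 gave an adjusted p of 3.56e-06, and 0.00284 with No316 and No368 summed, and over the 14 alternatives the adjusted p ran from 3.56e-06 to 0.818. *Mdk* and *Madd* were the 2 flanking genes with an unadjusted p under 0.05 in every setting (4.76% of the 42 tested, beside 1.12% of all genes tested), while 16 of the 42 (38.1%) had one in at least 1 setting, beside 29.9% of all genes tested. With 1 tumor left out, *Phf21a* (without No244), *Pax6* (without No203), *Chst1* (without No279), and *Ehf* and *Prdm11* (without No364) were among the genes that came under it.

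Of the other membrane, receptor and secreted proteins, *Lrp4* (chr2:91457511-91513779, plus strand), a receptor of agrin at the nerve-muscle junction that also binds sclerostin in bone, stood at 98.1, 135 and 129.8 CPM in the *Cd44*+/+ tumors. In the *Cd44*-/- tumors it stood at 79.3, 11.6 and 13.1 CPM, below all of the former, with No203 close to them. The log2 fold change was -1.80 (SE 0.80, adjusted p = 0.463 by edgeR), and its unadjusted p passed 0.05 only without No203 and in limma-voom and the Wald test. The sum of the 10 osteoblast markers was highest in No203 and lowest in No279 and No364. Single markers did not all follow it. *Bglap* was at 269 CPM in No203 against 1833 to 3481 CPM in *Cd44*+/+ tumors, and *Phex* was higher in No279 (15.9 CPM) than in No316 (7.96 CPM). The part of these markers in the level of *Lrp4* was not tested.

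*Cd82*, a tetraspanin known as a suppressor of metastasis, was at 68.5, 51.3 and 53.4 CPM in *Cd44*+/+ tumors and at 35.6, 90.3 and 103 CPM in *Cd44*-/- tumors, so the genotypes overlapped (log2 fold change 0.40, SE 0.46, adjusted p = 0.744 by edgeR). *Tspan18*, another tetraspanin, ranged from 1.88 CPM in No364 to 22.5 CPM in No203, which are both *Cd44*-/- tumors. *Ldlrad3*, of the low-density lipoprotein receptor family, ranged from 9.89 CPM in No364 to 32.4 CPM in No316, and *Fjx1*, a secreted protein of the four-jointed family, from 1.09 CPM in No244 to 7.40 CPM in No279. Each of these overlapped between the genotypes. *Chrm4*, a muscarinic acetylcholine receptor, had 1 to 12 counts per tumor and was not tested.

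*Syt13*, a synaptotagmin, had 1, 3 and 2 counts in the *Cd44*+/+ tumors and 0, 813 and 40 counts in No203, No279 and No364. The *Cd44*-/- tumors thus lay on both sides of the *Cd44*+/+ tumors, with 26.8 CPM in No279 and 2.09 CPM in No364. DESeq2 gave an adjusted p of 0.0192, which was 0.112 with No316 and No368 summed and 0.818 at the highest of the 8 alternatives that gave one. With edgeR *Syt13* was below the filter on all 6 libraries.

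The 7 signalling adaptors and kinases held 6 fold changes below 0 and 1 above, with a median log2 fold change of -0.53 against 0.11 over all genes tested. For 3 of the 7 (42.9%) the genotypes did not overlap, each lower in *Cd44*-/- tumors, beside 9.57% of all genes that were apart in this direction. Without No364 the median was -0.27. *Madd*, *Dgkz* and *Commd9* did not overlap there, but leaving a tumor out can hardly make separate genotypes overlap, so this is no check. In that setting 2395 of 17518 genes were apart in this direction.

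*Madd* (ENSMUSG00000040687, chr2:91137360-91183837, minus strand), the farthest of the 49 at 11.6 Mb below *Cd44*, encodes a protein with a death domain that binds a tumor necrosis factor receptor and activates Rab proteins of vesicle transport. It was counted at 50.4, 24.7 and 23.3 CPM in the *Cd44*+/+ tumors and at 11.7, 5.25 and 11.8 CPM in No203, No279 and No364. The highest *Cd44*-/- tumor lay below the lowest *Cd44*+/+ tumor, and No244 stood above the near-identical pair. The means were 37.2 ± 18.7 (SD, n = 2) and 9.59 ± 3.76 CPM (SD, n = 3), with a log2 fold change of -1.77 (SE 0.51, adjusted p = 0.452 by edgeR). Without each tumor in turn the log2 fold change ran from -1.97 to -1.33, and the unadjusted p stayed under 0.05. As for *Mdk*, these fits are not independent checks, because No316 and No368 are near-identical.

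*Dgkz* (ENSMUSG00000040479, chr2:91932824-91975864, minus strand), whose diacylglycerol kinase removes a lipid messenger of receptor signalling, lies next to *Mdk* on the same strand, with values in the other direction. It stood at 158.5, 83.7 and 88.5 CPM in *Cd44*+/+ tumors and at 61.5, 56.5 and 45.9 CPM in *Cd44*-/- tumors, without overlap. On the log2 scale the fold change was -1.01 (SE 0.38, adjusted p = 0.452 by edgeR). With 1 tumor left out, the unadjusted p stayed under 0.05 without No203 and went over it without any of the other 5. The annotation lists 2 genes that overlap *Dgkz*, 1 on each strand, and the strand setting of the counting was not given in the sources used here.

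*Commd9* (ENSMUSG00000027163, chr2:101886247-101901646, plus strand), 0.909 Mb below *Cd44*, belongs to the COMMD family of endosomal sorting and NF-kappaB control. It was at 46.2, 24.5 and 24.6 CPM in *Cd44*+/+ tumors and at 19.4, 24.0 and 22.6 CPM in *Cd44*-/- tumors. The ranges did not overlap but came within 1 CPM of each other, and No244 stood alone above the rest (log2 fold change -0.53, SE 0.38, adjusted p = 0.599 by edgeR, and -0.17 without No244). The bases just before its first exon are shown because they hold the letters that the study names as the response element of the CD44 intracellular domain, CCTGCG, in capitals. The stretch is chr2:101886012-101886246 of GRCm38.p6, plus strand, 235 bases, from RefSeq.
Commd9: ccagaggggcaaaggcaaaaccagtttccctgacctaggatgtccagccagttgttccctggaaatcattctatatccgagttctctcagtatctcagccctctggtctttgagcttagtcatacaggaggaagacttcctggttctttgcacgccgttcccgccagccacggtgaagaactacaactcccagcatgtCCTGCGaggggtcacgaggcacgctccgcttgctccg

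*Traf6*, the ubiquitin ligase that carries signals of Toll-like receptors and of the osteoclast receptor RANK, was nearly level at 21.6 to 35.3 CPM over the 6 tumors (log2 fold change 0.07, SE 0.34, adjusted p = 0.946 by edgeR). *Hipk3*, a nuclear protein kinase, stood at 67.5 to 133 CPM, and both ends of that range were *Cd44*-/- tumors. *Prr5l*, which binds the kinase complex mTORC2, was at 25.2 CPM in No203 but at 3.53 and 2.36 CPM in No279 and No364, against 10.8 to 21.1 CPM in *Cd44*+/+ tumors, and its unadjusted p passed 0.05 only without No203. *Mapk8ip1*, a scaffold of the JNK kinases, ranged from 2.74 CPM in No203 to 23.5 CPM in No279.

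Enzymes and organelle proteins of metabolism held 7 tested genes, 5 with a fold change above 0 and 2 below, and a median log2 fold change of 0.59, which was 0.11 without No364. The genotypes did not overlap for 1 of the 7 (14.3%, beside 19.1% of all genes). This was *Pdhx* (ENSMUSG00000010914, chr2:103021075-103073513, minus strand), the nearest tested gene at 0.119 Mb above *Cd44*, which encodes the component X of the pyruvate dehydrogenase complex. It was counted at 20.5, 16.7 and 14.6 CPM in the *Cd44*+/+ tumors and at 24.5, 24.5 and 28.9 CPM in No203, No279 and No364. All 3 *Cd44*-/- tumors were above all *Cd44*+/+ tumors, within a range over the 6 tumors of 1.98 times. The means were 18.1 ± 3.45 (SD, n = 2) and 25.9 ± 2.55 CPM (SD, n = 3), with a log2 fold change of 0.59 (SE 0.32, adjusted p = 0.520 by edgeR, and 0.47 to 0.72 on the log2 scale without each tumor in turn).

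*Apip*, an enzyme of methionine salvage, starts 161 bases from *Pdhx* on the other strand. It stood at 15.9, 19.4 and 17.3 CPM in *Cd44*+/+ tumors and at 13.6, 11.7 and 16.9 CPM in *Cd44*-/- tumors, so the ranges overlapped in the value of No364. Its log2 fold change was -0.32 (SE 0.35, adjusted p = 0.736 by edgeR), of the opposite sign to that of *Pdhx*, and neither passed the test. The stretch between the starts of this pair is shown because both genes are transcribed away from it, and the capitals mark its single GC box, CCGCCC, the reverse complement of GGGCGG. It is chr2:103073514-103073674 of GRCm38.p6, plus strand, 161 bases and 68.9% G or C, from RefSeq, and 35.7% of all RefSeq promoter windows hold a GC box on either strand.
Pdhx-Apip: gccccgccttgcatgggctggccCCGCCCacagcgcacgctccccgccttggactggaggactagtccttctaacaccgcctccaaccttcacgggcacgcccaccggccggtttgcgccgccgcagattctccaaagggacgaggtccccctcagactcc

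*Ext2*, which builds the heparan sulfate chain and is mutated in hereditary exostoses of bone, was at 87.3 to 131 CPM in *Cd44*+/+ tumors and 53.0 to 105 CPM in *Cd44*-/- tumors (log2 fold change -0.42, SE 0.40, adjusted p = 0.698 by edgeR). *Slc35c1*, the GDP-fucose transporter of the Golgi, kept within 12.6 to 23.2 CPM over the 6 tumors. *Chst1*, which sulfates keratan chains, was at 20.8 CPM in No279 and at 1.63 and 1.41 CPM in the other *Cd44*-/- tumors, on both sides of the 4.52 to 4.87 CPM of the *Cd44*+/+ tumors. *Pex16*, needed to build the peroxisome membrane, stood at 53.4 CPM in No364 and at 9.999 to 12.2 CPM in the other 5.

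The transcription and chromatin regulators numbered 11, of which 9 were tested. Of these, 6 fold changes were below 0 and 3 above, the median log2 fold change was -0.55, and none had an unadjusted p under 0.05 by edgeR. *Alx4* (chr2:93642384-93681339, plus strand), a homeobox factor of skull and limb patterning, was at 38.6, 94.99 and 91.6 CPM in *Cd44*+/+ tumors and at 30.3, 5.68 and 0.314 CPM in No203, No279 and No364. The genotypes did not overlap, but the *Cd44*-/- values alone spanned from 6 counts in No364 to 763 in No203. Its log2 fold change was -2.63 (SE 1.31, adjusted p = 0.492 by edgeR), and the unadjusted p passed 0.05 without No203 and in limma-voom. An antisense gene overlaps *Alx4*. The order of the *Cd44*-/- tumors was that of their osteoblast marker sums, 84807 in No203, 22533 in No279 and 3691 CPM in No364, and the part of these cells in *Alx4* was not tested.

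*Creb3l1*, a factor of the endoplasmic reticulum that drives collagen transcription in osteoblasts, had the same order within the *Cd44*-/- tumors, with 303, 93.3 and 7.33 CPM. It was at 172, 408 and 434 CPM in *Cd44*+/+ tumors, and the genotypes overlapped (log2 fold change -1.33, SE 1.14, adjusted p = 0.662 by edgeR). Without No364 its fold change was -0.77 on the log2 scale.

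*Prdm11* (chr2:92965151-93046167, minus strand), of the PRDM family of zinc finger and methyltransferase-like proteins, was low but separate, with 1.85, 1.46 and 1.51 CPM against 3.61, 6.21 and 2.46 CPM in *Cd44*-/- tumors. The difference was 1.35 on the log2 scale (SE 0.58, adjusted p = 0.460 by edgeR). An antisense gene overlaps it, and its reads cannot be told from those of *Prdm11* if the counting did not use strand. *Phf21a*, a subunit of a histone demethylase complex, was at 24.1 to 45.4 CPM against 22.1 to 27.7 CPM, and *Cry2*, a repressor of the circadian clock, at 18.7 to 20.3 CPM against 8.49, 11.5 and 20.2 CPM. For *Cry2* No364 alone lay within the *Cd44*+/+ range, and the unadjusted p passed 0.05 without it. *Qser1*, which guards developmental promoters against DNA methylation, was at 20.3 to 33.6 CPM in all tumors.

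The regulators best known from other lineages differed widely between single tumors. *Pax6*, of eye, brain and pancreas, was at 8.25 CPM in No203 and at 0.0660 and 0.0523 CPM in No279 and No364, against 0.378 to 0.452 CPM in *Cd44*+/+ tumors, so that its log2 fold change of 2.73 (SE 1.79, adjusted p = 0.571 by edgeR) was -2.72 without No203. *Wt1*, of kidney and gonad, had 1, 0 and 0 counts in *Cd44*+/+ tumors and 8, 101 and 8 counts in *Cd44*-/- tumors. The genotypes of *Wt1* did not overlap, with 3.33 CPM in No279 and 0.317 and 0.419 CPM in No203 and No364. DESeq2 gave it an adjusted p of 0.0315, and 0.153 with No316 and No368 summed, while edgeR without a filter gave 0.495. *Ehf*, an epithelial ETS factor, was at 0.833, 0.0660 and 10.9 CPM in No203, No279 and No364 against 3.36 to 13.2 CPM, and its relative *Elf5* had 3 counts in No203 and 0 in the other tumors. The epithelial markers summed to 1970 CPM in No364, 36.3 in No279 and 9.60 in No203 against 2.61 to 3.53 CPM in *Cd44*+/+ tumors. Most of the sum in No364 came from *Krt8* and *Krt18*, at 963 and 959 CPM, with *Cdh1* next at 37.9 CPM. The part of these markers in *Ehf* was not tested. *Lmo2*, a partner of factors of blood and vessel cells, was at 7.31 to 18.5 CPM in 5 tumors and at 46.8 CPM in No364.

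**Figure D2:**
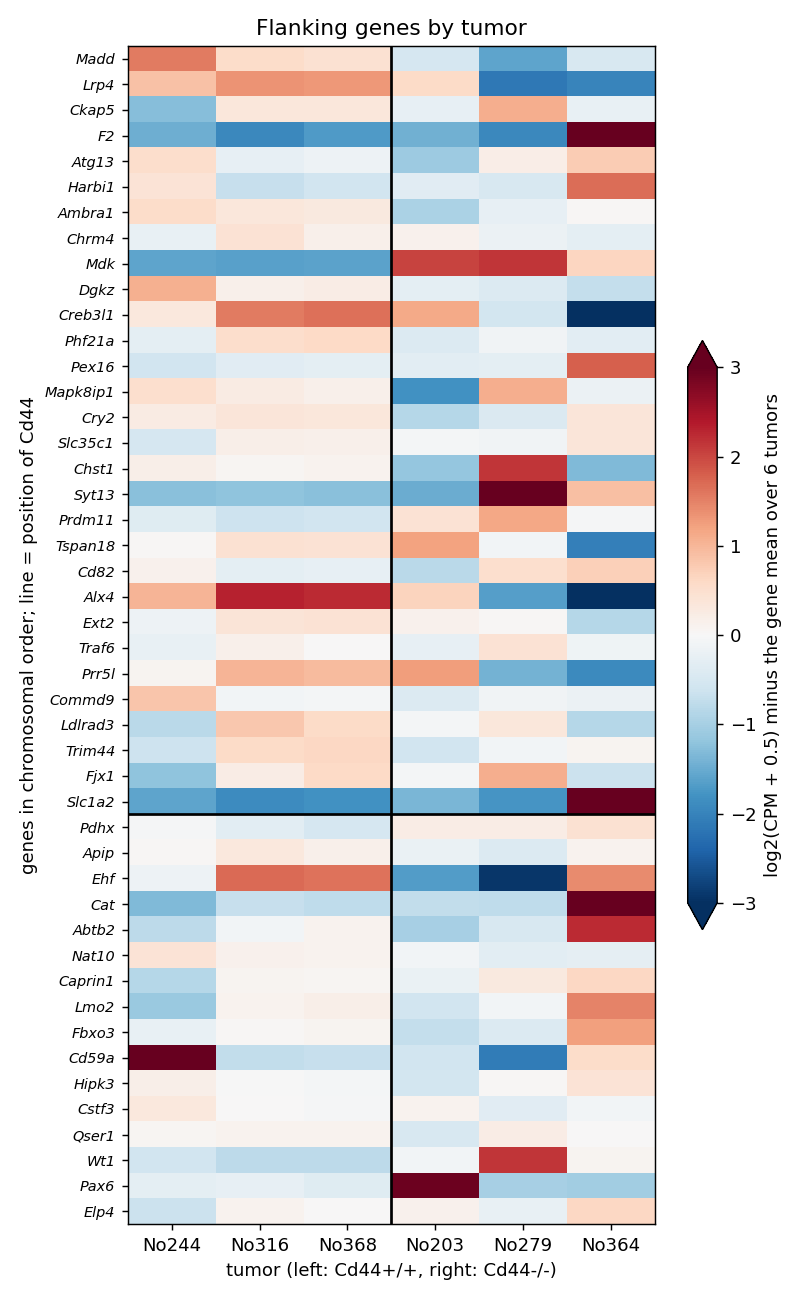
Level of the flanking genes in each tumor as log2(CPM + 0.5) minus the gene's mean over the 6 tumors, in chromosomal order, with *Cd44* at the horizontal line (*Rag1*, *Rag2* and *Elf5*, with at most 3 counts per tumor, are left out). No316 and No368 look alike in each row, and *F2*, *Slc1a2* and *Cat* are highest in No364, *Cd59a* in No244, *Syt13* in No279 and *Pax6* in No203.

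The 8 proteins of RNA, ubiquitin and transposase-like function had 5 fold changes above 0 and 3 below, and 2 above and 6 below without No364. *Nat10* (chr2:103721256-103761270, minus strand), the enzyme that acetylates cytidine in RNA, was at 47.3, 38.6 and 37.95 CPM in *Cd44*+/+ tumors and at 33.5, 28.5 and 29.3 CPM in *Cd44*-/- tumors. It did not overlap, over a range of 1.66 times between the highest and the lowest tumor (log2 fold change -0.44, SE 0.29, adjusted p = 0.566 by edgeR). The neighbour *Caprin1*, an RNA-binding protein of stress granules, lies 0.861 Mb above *Cd44* and was at 116.5 to 225 CPM against 183 to 326 CPM (log2 fold change 0.45, SE 0.46, adjusted p = 0.720 by edgeR). *Cstf3*, of the complex that cleaves mRNA ends, stood at 15.7 to 25.3 CPM, and *Elp4*, of the Elongator complex, at 7.31 to 18.1 CPM. *Trim44*, which acts on ubiquitin chains, was at 59.9, 138 and 141 CPM in *Cd44*+/+ tumors and at 61.9 to 97.2 CPM in *Cd44*-/- tumors, where No244 and No203 were alike. *Fbxo3* and *Abtb2*, a pair of adaptors of ubiquitin ligases, were highest in No364, at 136 and 33.9 CPM, against 35.0 to 61.3 and 3.13 to 7.35 CPM in the other tumors, and both had a fold change below 0 without it.

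Among autophagy and microtubule proteins *Ambra1* (chr2:91730134-91918849, plus strand), which starts autophagy and controls the cell cycle, did not overlap. It was at 51.3, 43.9 and 42.7 CPM in *Cd44*+/+ tumors and at 17.6, 29.3 and 35.4 CPM in *Cd44*-/- tumors (log2 fold change -0.74, SE 0.36, adjusted p = 0.486 by edgeR), and its unadjusted p passed 0.05 only without No364. *Atg13*, of the kinase complex that starts autophagy, was at 23.7 to 41.4 CPM against 13.1 to 48.4 CPM with a log2 fold change of 0.06 (SE 0.53), and it shares a start region of 275 bases with the transposase-like *Harbi1*. *Harbi1* was at 17.1 CPM in No364 and at 2.88 to 6.81 CPM in the other tumors. *Ckap5*, which lengthens microtubules, was lowest in No244 at 15.5 CPM and highest in No279 at 82.9 CPM.

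*Rag1* and *Rag2*, which cut DNA to join antigen receptor genes in lymphocytes, were not detected. *Rag2* had 0 counts in each tumor, and *Rag1* had 1 count in No316 and in No368 and 0 in the others, under the 3 counts taken as detectable. The 10 lymphocyte markers summed to 2.95 to 27.5 CPM.

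A few flanking genes owed their fold change to 1 tumor. *F2*, which encodes prothrombin and is made by the liver, was at 0.924, 0.521 and 0.714 CPM in *Cd44*+/+ tumors and at 0.952, 0.528 and 1401 CPM in No203, No279 and No364. Outside No364 the genotypes overlapped within 1 CPM. Its log2 fold change of 9.35 (SE 3.24, adjusted p = 0.452 by edgeR) became 0.06 without No364. *Cat*, the peroxisomal catalase that is abundant in liver, was at 37.4, 58.1 and 55.4 CPM in *Cd44*+/+ tumors and at 56.3, 55.1 and 1823 CPM in *Cd44*-/- tumors. Its log2 fold change of 3.68 (SE 1.48, adjusted p = 0.459 by edgeR) became 0.15 without No364. The unadjusted p of both genes went over 0.05 without No364 and also without any 1 of the *Cd44*+/+ tumors.

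*Slc1a2*, a glutamate transporter best known from astrocytes, is the gene nearest to *Cd44*, with its end 0.0204 Mb below. It had 4 to 12 counts in 5 tumors, or 0.174 to 0.476 CPM, and 16531 counts or 865 CPM in No364. It did not pass the filter on all libraries. The hepatocyte marker sum of 117529 CPM in No364 moves with *F2*, *Cat* and *Slc1a2*, and its part in their levels was not tested. The neuron and glia markers summed to 5.60 CPM in No364, the lowest of the 6 tumors.

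*Cd59a*, an inhibitor of complement on the cell surface, was high in a *Cd44*+/+ tumor instead, with 560.1 CPM in No244, 27.9 and 29.1 CPM in No316 and No368, and 31.7, 10.6 and 68.9 CPM in *Cd44*-/- tumors. Its log2 fold change of -2.47 (SE 1.35, adjusted p = 0.520 by edgeR) turned to 0.37 without No244, which leaves the near-identical pair as the only *Cd44*+/+ libraries. The muscle and erythroid markers of No244, at 19860 and 5366 CPM, were also the highest of the 6 tumors, and their part in *Cd59a* was not tested.

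**Figure D3:**
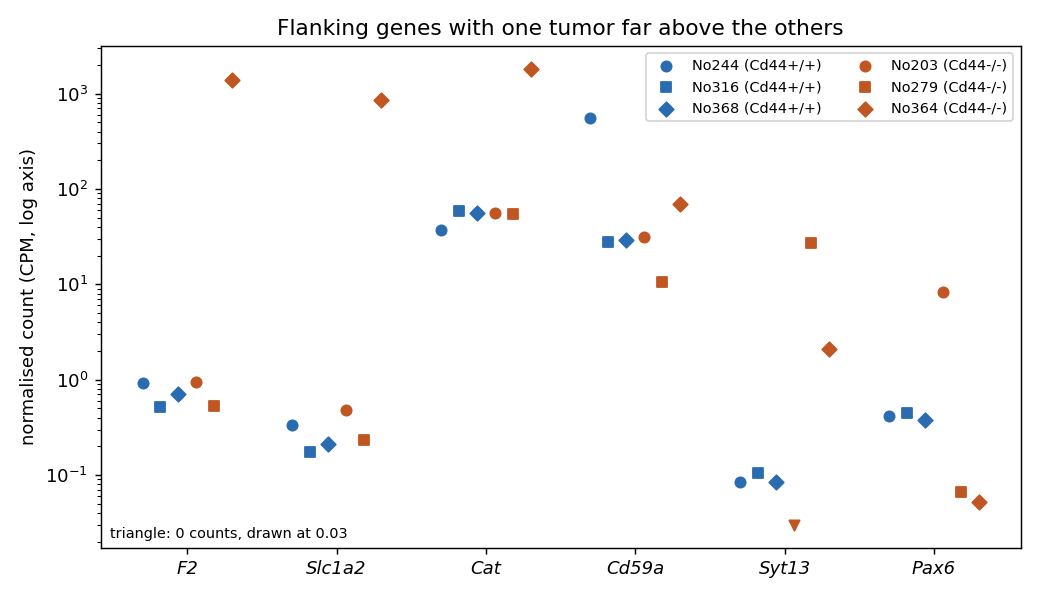
Normalised counts (CPM, log axis) of 6 flanking genes with 1 tumor far above the others, 1 point per tumor by shape and color; the triangle stands for 0 counts. *F2*, *Slc1a2* and *Cat* reach 1401, 865 and 1823 CPM in No364, and *Cd59a* reaches 560.1 CPM in No244.

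Per length of annotated exons, and as a mean over the 6 tumors, *Cat* (133 CPM per kb), *Creb3l1* (90.8), *Cd59a* (67.0), *F2* (50.9) and *Cd82* (22.3 CPM per kb) had the highest levels of the 49. For *Cat*, *Cd59a* and *F2* that mean rested on 1 tumor. Over the 42 tested genes No364 was the highest tumor for 14 (33.3%, against 25.02% of all genes tested) and No203 the lowest for 12 (28.6%, against 12.4%). The range between the highest and lowest tumor was under 2 times for 8 genes (19.0%, beside 12.7% of all genes tested), namely *Slc35c1*, *Traf6*, *Pdhx*, *Apip*, *Nat10*, *Hipk3*, *Cstf3* and *Qser1*.

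By distance, the 12 tested genes under 1 Mb from *Cd44* had a median log2 fold change of -0.38, with 1 (8.33%) at an unadjusted p under 0.05 (*Cat*) and 3 (25%) without overlap (*Commd9*, *Pdhx* and *Nat10*), beside 10.7% and 19.1% of all genes tested. The 9 tested genes at 1 to 3 Mb had a median of 0.07, and none passed either rule. No listed gene lay at 3 to 6 Mb. The 21 tested genes over 6 Mb away, all below *Cd44*, had a median of -0.10, with 4 (19.0%) at an unadjusted p under 0.05 and 7 (33.3%) without overlap. Of the 43 tested genes of the stretch that are not listed and lie over 6 Mb away, 3 (6.98%) and 5 (11.6%) did so. Without No364 the shares without overlap were 38.1% of the listed and 40.4% of the other genes over 6 Mb away. The share over all genes tested also went up in that setting, to 28.7%, as fewer tumors have to be apart. The classes hold few genes, and no test was run between them. Across the 42 genes, Spearman's rho between distance and log2 fold change was -0.05, and between distance and the size of the change 0.20, given without a test because neighbouring genes come from the same 6 libraries. The median was -0.18 over the 27 tested genes below *Cd44* and 0.33 over the 15 above it, and the latter was -0.21 without No364.

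**Figure D4:**
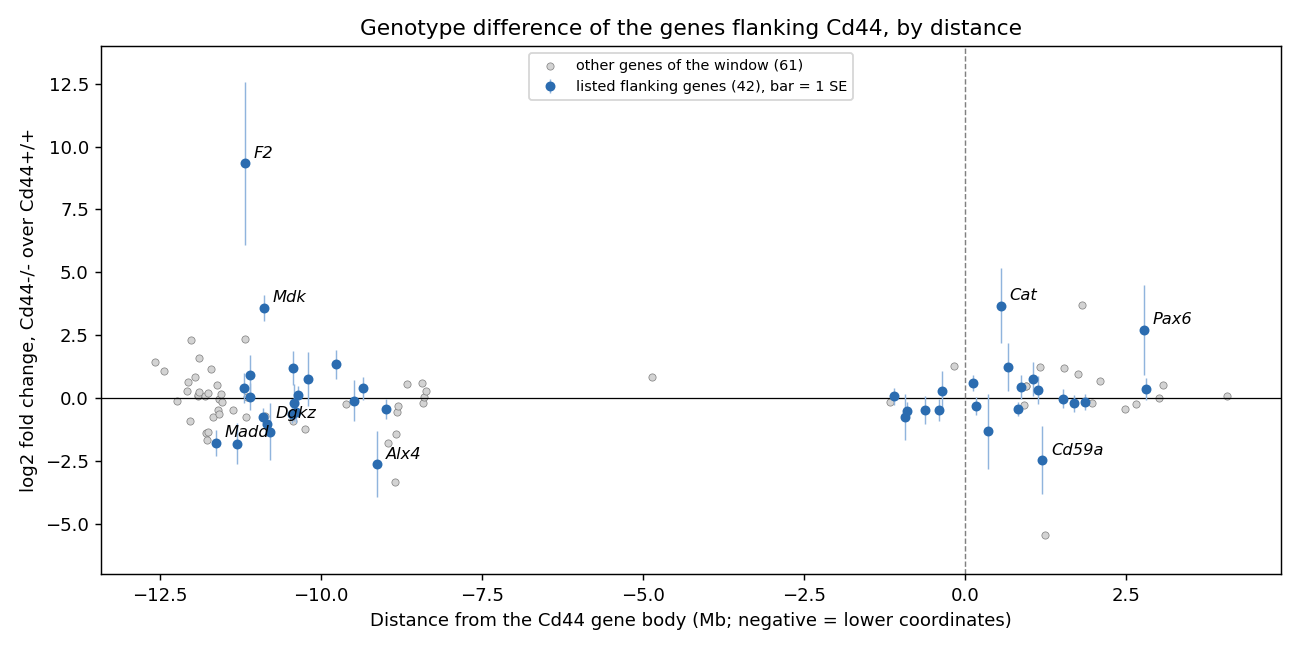
Log2 fold change (*Cd44*-/- over *Cd44*+/+, edgeR) against the distance from the *Cd44* gene body in Mb, for 42 listed genes with 1 SE and for 61 other tested genes of the stretch (grey). Values lie around 0 on both sides of *Cd44* (dashed line), and *F2* at 9.35 and *Mdk* at 3.59, 11.2 and 10.9 Mb away, are the highest of the listed genes below it.

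Other genes of the same stretch, not on the list, were compared by the same fit. Of 213, 61 were tested, 5 had an unadjusted p under 0.05 by edgeR (8.20%) and 7 did not overlap (11.5%). Over the rest of chromosome 2, with 1290 genes tested, the shares were 11.2% and 21.6%. The 5 with the smallest p were *Gm13889*, *D430041D05Rik*, *Depdc7*, *Accs* and *Fnbp4*. The genotypes of each did not overlap, in the same 6 libraries whose p picked them. *Gm13889* was at 10.3 to 55.9 CPM in *Cd44*+/+ and 2.83 to 5.04 CPM in *Cd44*-/- tumors (log2 fold change -3.33, SE 0.71, adjusted p = 0.452 by edgeR). *D430041D05Rik* was at 0.695 to 2.35 CPM against 0 to 0.0793 CPM. *Depdc7*, 1.82 Mb above *Cd44*, was at 0.834 to 1.26 CPM against 2.06, 11.9 and 24.9 CPM in No203, No279 and No364. *Accs* was at 16.9 to 37.7 CPM against 6.70 to 7.20 CPM, and *Fnbp4*, which binds formins, at 68.7 to 86.5 CPM against 33.7 to 54.9 CPM. The others of these 5 had the same adjusted p.

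**Figure D5:**
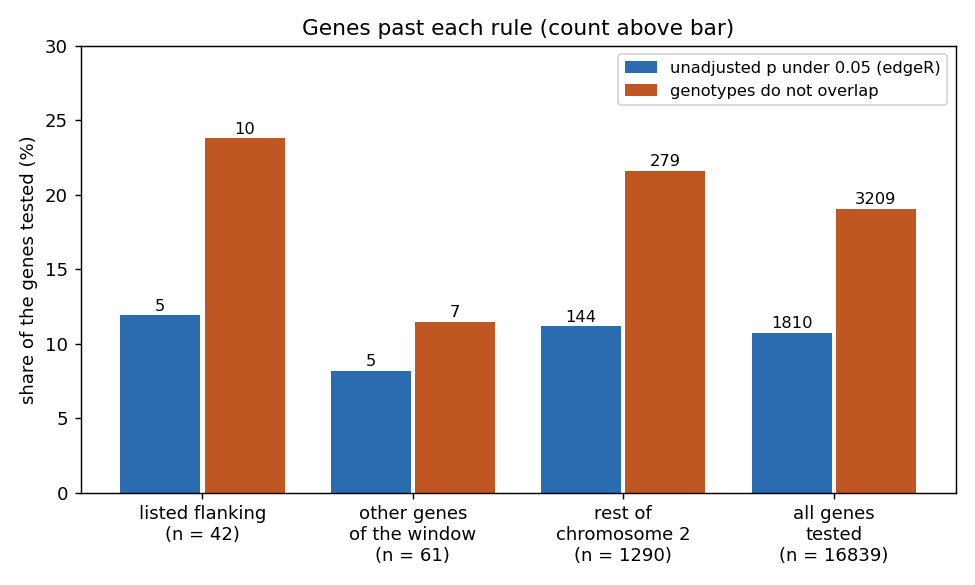
Share (%) of tested genes with an unadjusted p under 0.05 by edgeR and of genes whose genotypes did not overlap, for the listed flanking genes, the other genes of the stretch, the rest of chromosome 2 and all genes tested, with the number of genes above each bar. The listed genes stand at 11.9% and 23.8%, and all genes at 10.7% and 19.1%.

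The study names the sequences CCTGCG (CIRE) and TGAGTCA or TGACTCA (TRE) as elements through which the intracellular domain of CD44 acts on promoters, and both were searched on both strands of the RefSeq windows of 250 bases before to 50 after each start. A window was held for 37 of the 49 genes, without *Alx4*, *Creb3l1*, *Ehf*, *Fbxo3*, *Fjx1*, *Lmo2*, *Lrp4*, *Mapk8ip1*, *Mdk*, *Syt13*, *Tspan18* and *Wt1*. CCTGCG was found for 16 of the 37 genes (43.2%), beside 19.2% of all genes with a window. Among tested genes with a window it was found for 16 of 32 flanking genes (50%), beside 32.03% of all. Of the 7 genes with a window whose genotypes did not overlap, 2 (*Dgkz* and *Commd9*) held CCTGCG, and of the other 25 tested genes with a window 14 did. The TRE letters were found for *Harbi1* and *Trim44*, 2 of 37 (5.41%), beside 5.95% of all genes. A match describes the letters of the window and not the binding of a factor.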

How the data were processed

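mRNA of 6 primary mouse osteosarcomas was measured, 3 *Cd44*+/+ and 3 *Cd44*-/-, grouped by their labels. The authors made stranded mRNA libraries, sequenced single-end reads, aligned them to GRCm38 with HISAT2 (2.0.2) and counted them per Ensembl gene with featureCounts of Subread (2.0.0). They deposited raw counts, without normalization, in 1 column per tumor. The strand setting and the treatment of reads that match several genes were not given in the sources used here.

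The flanking genes, their role groups, the marker lists and the tests were chosen with earlier results of these data known. Symbols and coordinates came from GENCODE M21 on GRCm38 (37693 identifiers matched), another release than the one counted, and 23 of the 49 genes overlap another annotated gene, 9 of them on the same strand. Distance was measured between gene bodies.

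R 4.3.3 and edgeR 4.0.16 were used to compare the genotypes on all 6 libraries. Genes were kept by filterByExpr (minimum count 10), libraries were scaled by TMM, and the quasi-likelihood F test was two-sided, with Benjamini-Hochberg adjustment over all 16839 genes tested and a threshold of 0.05. The biological coefficient of variation was 0.708. The SE of a log2 fold change is its size divided by the square root of F. Genotypes were taken as not overlapping where every *Cd44*-/- tumor lay above or below every *Cd44*+/+ tumor in CPM. A pair of libraries was compared over genes with at least 20 summed counts against the 95% range of binomial sampling. Intervals and floors cover counting error only. The near-identical libraries No316 and No368 mean that the fit holds fewer independent samples than libraries.

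The text names all 49 genes. Those with an unadjusted p under 0.05 or without overlap, the 5 highest per length and the 2 nearest on either side of *Cd44* are described in full, and of other genes of the stretch the 5 with the smallest p. The alternatives changed the scaling (DESeq2's size factors, or none beyond library size), the filter (none but a total above 1, or 10 counts as the minimum for each tumor), the test (limma-voom of limma 3.58.1, or the Wald test of DESeq2, version 1.42.0) or the libraries (No316 and No368 summed, or 1 tumor left out). The Wald test with that pair summed, and all alternatives for the other genes of the stretch, were chosen after seeing the data. Of the fits, that of edgeR alone was tested on simulated data. The recovery of known changes was required there only at a spread below that of these data.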

Additional observations from a re-analysis of the deposited data

How the results depend on the processing

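No paired analysis was possible because the labels give the groups no shared replicate numbers. The number of genes called over the whole table went from 0 with edgeR to 419 with the Wald test of DESeq2, and to 146 with No316 and No368 summed in that test. The log2 fold change of *Cd44* was -2.70 in the Wald test and passed the threshold there.

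Flanking genes at an unadjusted p under 0.05 went from 5 to 8 without a filter and to 2 with No316 and No368 summed in edgeR, and ran from 2 (without No316 or No368) to 10 (without No203) with 1 tumor left out. In these settings the counts over all genes tested went the same way, from 1810 to 2543 without a filter and to 761 with the pair summed. They were 763 and 784 without No316 or No368 and 3085 without No203. In others they went the other way. Without No244 there were 3 flanking genes but 1929 of all genes. There were 6 and 1545 without No364, and 6 and 1535 with 10 counts as the minimum for each tumor. Flanking genes without overlap went from 10 to 3 with library size alone and ran from 10 to 19 with 1 tumor left out, highest without No244, then 18 without No203 and 17 without No279, where fewer tumors have to be apart and the share over all genes also went up, to 39.7%, 37.8% and 29.3%. The other genes of the stretch at an unadjusted p under 0.05 went from 5 to 9 without a filter, to 12 in the Wald test and to 8 in that test with the pair summed, and ran from 4 to 12 with 1 tumor left out, at 9, 12 and 10 without No244, No203 and No364. The median log2 fold change of the flanking genes was -0.20 with limma-voom and ran from -0.20 to 0.15 with 1 tumor left out, above 0 without No203 only. No scaling moved the median over all genes by more than 0.1 on the log2 scale.

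Of the 42 tested genes, 26 kept the sign of their fold change under all 14 alternatives and 16 did not. The sign of *Atg13* turned with limma-voom (-0.061), with No316 and No368 summed (-0.078) and in the Wald test with that pair summed (-0.091), that of *Slc35c1* with library size alone (-0.076), and those of *Chst1* and *Pax6* with limma-voom (-0.23 and -0.21). The cause was not tested. With 1 tumor left out, the log2 fold change ran from -0.22 to 0.62 in *Ckap5*, from -0.39 to 0.40 in *Atg13*, from -0.23 to 1.40 in *Harbi1*, from -1.14 to 0.26 in *Mapk8ip1*, from -0.089 to 0.22 in *Slc35c1*, from -1.61 to 1.27 in *Chst1*, from -1.18 to 0.41 in *Tspan18* and from -0.17 to 0.17 in *Traf6*. It likewise ran from -0.44 to 0.73 in *Fjx1*, from -0.56 to 1.71 in *Abtb2*, from -0.14 to 1.08 in *Lmo2*, from -0.53 to 0.64 in *Fbxo3*, from -3.27 to 0.37 in *Cd59a*, from -0.27 to 0.17 in *Hipk3*, from -0.31 to 0.0029 in *Qser1* and from -2.72 to 3.30 in *Pax6*.

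The comparison rests on 3 tumors against 3, of which a pair is near-identical, with a biological coefficient of variation of 0.708.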
